A study of Danio rerio with 4 samples.

Results

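The wild-type baseline of zebrafish (Danio rerio) neural crest at 20 hours post fertilization (hpf) was described from bulk RNA sequencing of cells that were FACS-purified on their sox10:DsRed signal. A gene was taken as part of this baseline when its transcripts, summed by gene name, reached 5 TPM (transcript abundance scaled for transcript length and library total) in both wild-type samples. This held for 9084 of the 26267 genes with a value, or 34.6%. These 9084 genes held 98% of the TPM of wild-type replicate 1 and 97.9% of that of replicate 2. The series asks how Nr2f nuclear receptors act on cranial ectomesenchyme and has 4 samples. The 2 wild-type samples used here are named biological replicates, and the other 2 were not analysed here. The titles of those other 2 name nr2f2 and nr2f5 mutant embryos, while their genotype label marks nr2f5 as mutant and nr2f2 as unknown (unk). Each sample was a pool of embryos, and the design text gives 110 and 120 embryos for the wild-type samples without tying them to replicate numbers. The wild-type group carries no agent or mutation in its labels, but its cells carry the sox10:DsRed transgene used for the sort.

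Neural crest cells arise at the border of the neural plate, lose their epithelial contacts and migrate. In the head, crest cells that fill the pharyngeal arches turn into ectomesenchyme, which later forms cartilage, bone and connective tissue of the face; other crest cells become pigment cells, peripheral neurons and glia. Transcription factors of the SoxE, FoxD, Tfap2, Snail and Pax3/7 families specify the crest, and Twist, Dlx, Prrx and Nr2f factors mark its arch derivatives. The sox10 gene is a crest specifier that is also active in the otic vesicle, so a sort on its reporter can hold more than crest.

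All values below are TPM in replicate 1 and then replicate 2. Since TPM is scaled to a fixed total, library depth cannot be read from it and is unknown. With 1 group and 2 samples there was no contrast to test, and no p-values are given. The 2 values of a gene are the only measure of its spread here. Across the 9084 genes, Pearson's r of log2(TPM + 1) between the replicates was 0.977 and Spearman's rho 0.962, over genes that share their libraries and are not independent. The replicates lay within 1.5-fold for 84.8% of the genes. Of the 9084 genes 63.6% were higher in replicate 1, as were 60.1% of the 21794 genes above 0 in either sample. Each count of genes higher in 1 replicate below is to be read against these shares. Each count of list genes in the baseline is given beside the 34.6% of all genes. The lists were chosen with earlier results of these data known, so a high share is no evidence of cell identity. The 34.6% also covers entries without a symbol and 4473 genes listed at 0 in both samples. Replicate 2 stood apart in markers of outer skin and of muscle, as described further below, so each value is given for both samples. In bulk samples, fewer cells of a type and less RNA per cell cannot be told apart.

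The 5 crest and arch markers described first, sox10, crestin, foxd3, twist1a and dlx2a, were all in the baseline. The cells were sorted on a reporter of 1 of them, sox10. The arch factor gene twist1a stood at 847 and 1005 TPM, rank 175 of 9084 by mean level. The arch homeobox gene dlx2a followed at 598 and 662 TPM, rank 268. The gene of the reporter itself, sox10, stood at 411 and 318 TPM, rank 492. These 3 genes did not overlap in their values. The crest-specific transcript crestin stood at 187 and 145 TPM, rank 1083, and the specifier foxd3 at 121 and 111 TPM, rank 1536. All 5 markers thus lay within the top 1536 of 9084 genes, with the 2 arch factor genes above the 3 crest genes in each replicate.

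**Figure D1:**
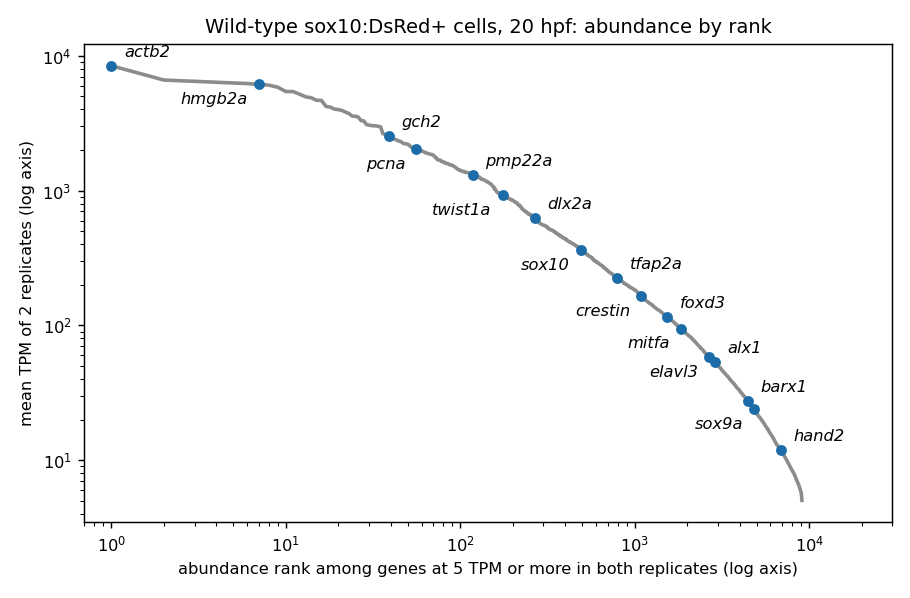
Mean TPM of the 2 wild-type replicates (log axis) against abundance rank (log axis) for the 9084 genes at 5 TPM or more in both, with named genes as points. Structural and chromatin genes such as actb2 and hmgb2a lie at the top, twist1a at rank 175 and sox10 at rank 492, and hand2 near the low end.

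Among genes with a symbol, the most abundant transcripts were those of the cytoskeleton, chromatin and translation. The cytoplasmic actin gene actb2 led at 8517 and 8362 TPM, and actb1 stood at 4691 and 5232 TPM. Chromatin proteins of the high mobility group followed, with hmgb2a at 5990 and 6290 TPM, hmga1a at 5790 and 5900 TPM, hmgb2b at 4088 and 4339 TPM, hmgn2 at 3545 and 3917 TPM and hmgn6 at 3066 and 3052 TPM. As a class, the 13 high mobility group genes with a symbol held 2.78% and 2.91% of the library TPM. The beta-tubulin gene tubb2b stood at 4983 and 5404 TPM, the elongation factor gene eef1a1l1 at 4902 and 4863 TPM and the constitutive chaperone gene hspa8 at 4811 and 4537 TPM.

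Ribosomal protein genes formed the largest of the 13 classes that were summed by symbol. Of 93 such genes 86 were in the baseline, and they held 11.5% and 13.03% of the TPM, with rpl32 (5052 and 5804 TPM), rps2 (4089 and 4235 TPM), rpl19, rplp1, rps12 and rpl3 among the 25 most abundant genes with a symbol. RNA-binding proteins were next to them, with hnrnpa0l at 4528 and 4810 TPM, hnrnpaba at 4150 and 3709 TPM, khdrbs1a at 3187 and 2854 TPM and ybx1 at 3152 and 2926 TPM. The other genes among the 25 were ptmab, which encodes a prothymosin, the histone variant genes h3f3b.1 and h2az2b, the thymosin gene tmsb4x and the nucleolar gene npm1a. The 13 mitochondrially encoded genes were all in the baseline but held 0.410% and 0.486% of the TPM.

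Entries without a gene symbol held most of the top 10 ranks by mean level. They were 4 entries tied at rank 2, si:ch211-222l21.1 at rank 6, CT583728.24 at rank 8 and si:dkey-151g10.6 at rank 10. Of the 9084 genes, 1049 had clone names or accession-like names only. The 4 entries at rank 2 (AL935186.4, AL935186.5, AL935186.7 and AL935186.9) shared the same values, 7786 and 5433 TPM. Together they held 3.11% and 2.17% of the TPM. In all, 23 genes in 10 sets had values equal to those of another gene in both columns to the last digit deposited, so their levels cannot be told apart. No function is given for such entries here.

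The abundance curve was steep. The 10 most abundant genes held 6.93% and 6.02% of the TPM, the top 100 held 28.1% and 28.7%, and the top 1000 held 66.6% and 68.4%. The median gene of the baseline stood at 28.0 and 24.9 TPM. In replicate 1, 157 genes reached 1000 TPM and 1785 reached 100 TPM, against 168 and 1720 in replicate 2.

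Transcription factor genes, taken from families matched by symbol, numbered 315 in the baseline and held 1.80% and 1.66% of the TPM. Their median level was 24.97 and 22.6 TPM, close to the median of the whole baseline. The gene twist1a was the highest of them in both replicates, with a mean of 926 ± 111 TPM (SD, n = 2). After it came dlx2a and nr2f5, an orphan nuclear receptor gene of the Nr2f family at 579 and 559 TPM. Neither twist1a and dlx2a nor dlx2a and nr2f5 overlapped, so the order of the top 3 was the same in both samples.

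Below these 3, the order differed in part between the samples. The genes fosab (401 and 383 TPM), hif1al (405 and 353 TPM), sox10 (411 and 318 TPM), junbb (375 and 327 TPM) and ets1 (402 and 283 TPM) mostly overlapped in their values; of these, fosab and junbb did not overlap with each other. The genes fosab and junbb encode immediate early AP-1 subunits, and ets1 encodes an Ets factor of crest and vessels. The proliferation regulator mycn stood at 311 and 331 TPM and its relative max, the dimer partner of Myc proteins, at 287 and 270 TPM. The remaining genes of the top 20 included tfap2a, atf4b, tgif1, msx1b, snai2, sox11a, snai1a, zeb2a and junba, from 224 TPM for tfap2a to 159 TPM for junba by mean. Among these 20 genes, twist1a, dlx2a, nr2f5, sox10, ets1, mycn, tfap2a, msx1b, snai2, snai1a and zeb2a are on the crest or arch lists. The genes fosab, junbb and junba belong to the AP-1 family. The crest and arch lists consist largely of transcription factor genes. Their share among all 315 was not counted, so no excess at the top is read from this.

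The early neural crest list was nearly complete. Of 31 genes, 27 (87.1%) were in the baseline, beside 34.6% of all genes, and the list summed to 4225 and 3409 TPM. As the list was chosen with earlier results of these data known, its share is a description only. The highest was ednrab, an endothelin receptor gene of crest, at 481 and 329 TPM. The helix-loop-helix inhibitor gene id2a stood at 300 and 269 TPM, inka1a (a p21-activated kinase inhibitor) at 286 and 234 TPM, and the AP-2 gene tfap2a, needed for crest induction, at 229 and 219 TPM. The Snail genes, which repress epithelial cadherin during delamination, were led by snai2 at 188 and 178 TPM and snai1a at 145 and 191 TPM, while snai1b stood at 12.2 and 11.2 TPM.

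Within this list the border and pigment factor genes pax7b and pax7a stood at 190 and 69.1 TPM and at 85.7 and 64.6 TPM. The related pax3a was far lower at 15.4 and 8.87 TPM. The SoxE genes were uneven: sox9a stood at 24.97 and 22.9 TPM and sox9b at 20.3 and 10.04 TPM, both below sox10, while sox8a and sox8b were under 1.1 TPM in both samples. The 4 genes of the list outside the baseline were pax3b, sox8a, sox8b and zeb2b. Of the 31 genes, 27 were higher in replicate 1 and 4 in replicate 2, mycn, snai1a, inka1b and tfap2c.

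Arch ectomesenchyme genes were also broadly present. Of 48 genes with a value, 36 (75%) were in the baseline, beside 34.6% of all genes, and the list summed to 3889 and 4062 TPM. The same limit on the choice of the list holds here. The genes twist1a, dlx2a and nr2f5 together exceeded all the others of the list. The next group lay between 97.4 and 165 TPM in both samples. It held fli1a, an Ets gene of crest and vessels, at 155 and 145 TPM, the Hox cofactor genes meis3 (161 and 134 TPM) and pbx4 (165 and 123 TPM), the homeobox gene prrx1a (97.4 and 141 TPM), the chemokine gene cxcl12b (112 and 101 TPM) and the forkhead gene foxc1b (105 and 106 TPM). The values of these 6 genes overlapped in part.

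Other arch factors were at moderate levels. The Nr2f genes nr2f2, nr2f1a and nr2f1b stood at 73.5 and 59.3 TPM, 34.2 and 33.1 TPM, and 29.2 and 28.0 TPM, all well below nr2f5. The forkhead genes foxd1 and foxd2 stood at 58.5 and 68.0 TPM and at 55.2 TPM in both samples. The homeobox genes six1a and six4b stood at 40.1 and 50.9 TPM and at 43.1 and 49.4 TPM, and the T-box gene tbx2b at 65.2 and 60.7 TPM. The receptor gene pdgfra, which guides arch crest, stood at 33.1 and 18.1 TPM.

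**Figure D2:**
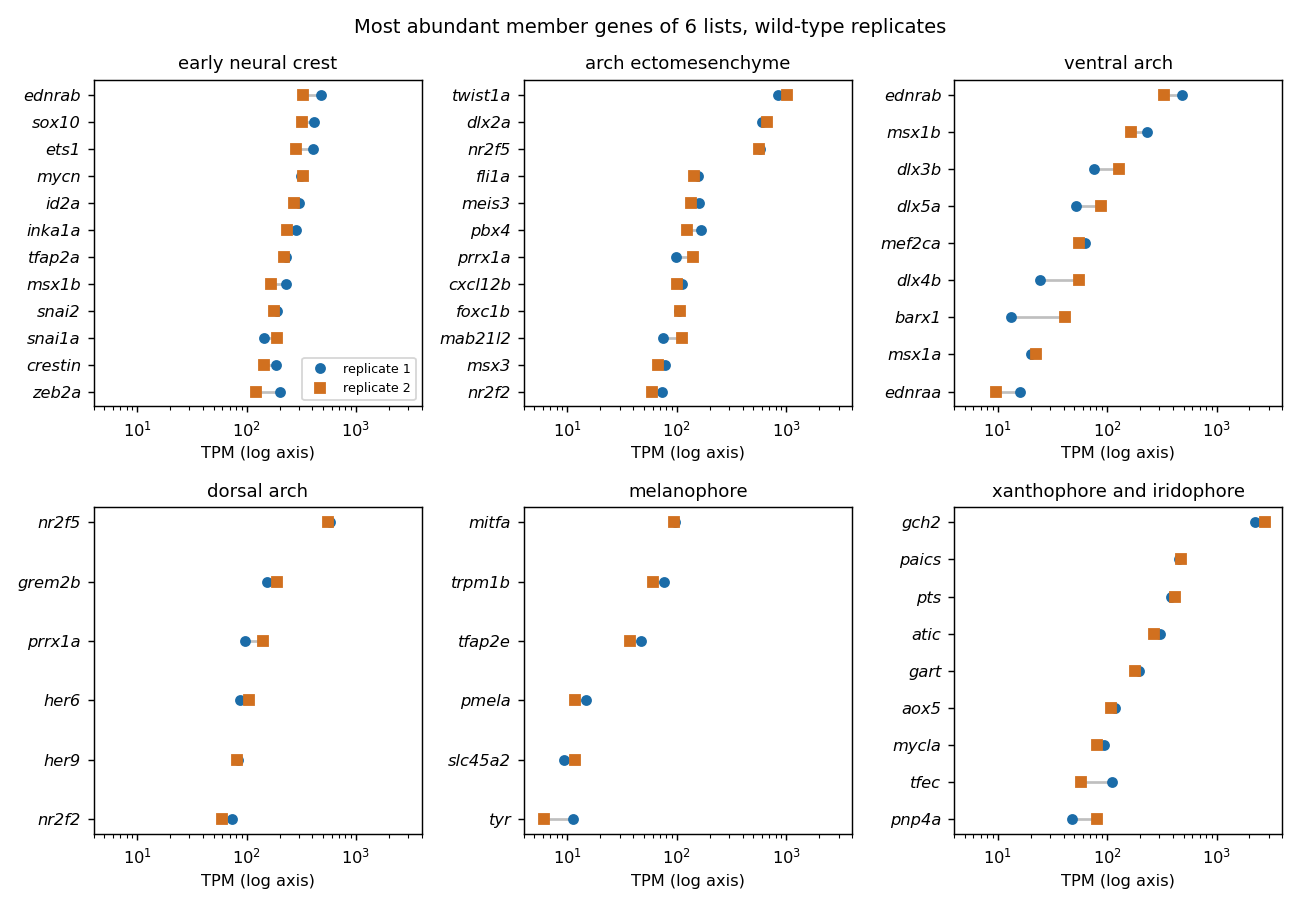
TPM (log axis) of the most abundant baseline genes of 6 lists, with circles for wild-type replicate 1, squares for replicate 2 and a line joining them. In the early crest panel most squares lie left of the circles, as for ednrab at 481 and 329 TPM, and barx1 and dlx4b show the wide gaps in the ventral arch panel.

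Zebrafish carry many genes as a and b copies, and in many crest and arch genes 1 copy dominated. Among 38 such pairs in which at least 1 copy is in the crest, arch or anterior face lists, both copies were in the baseline for 20, 1 copy for 8 and neither for 10. For 36 of the 38 pairs, all but lhx8 and pax7, both values of the more abundant copy lay above both values of the other. Of the 20 pairs with both copies in the baseline, 10 were at least 5-fold apart in both replicates.

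The twist1 pair was the widest of those 10 pairs. The copy twist1b stood at 16.98 and 19.7 TPM, so twist1a was 49.9-fold and 51.0-fold higher. The gene dlx2b (0.724 and 1.08 TPM) was outside the baseline beside dlx2a, and so was zeb2b (0.475 and 0.432 TPM) beside zeb2a (203 and 123 TPM), a repressor gene of epithelial cadherin. In contrast, the nr2f1 copies were within 1.2-fold of each other in both samples, and prrx1a was 2.14-fold and 1.72-fold above prrx1b (45.5 and 82.4 TPM). The mapping of short reads between near-identical copies depends on the authors' quantification.

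Of the 12 most abundant crest and arch genes, 6 (nr2f5, ednrab, sox10, mycn, msx1b and snai2) have 1 transcript in the table, so their levels could not be divided. Of the 6 genes with more than 1, the leading transcript held at least 96.3% of the TPM in both replicates for 5 (twist1a, dlx2a, ets1, id2a and inka1a). The other was tfap2a, where ENSDART00000082346 held 56.5% and 56.3% and ENSDART00000183624 held 42.0% and 41.8%. The split of tfap2a was alike in the replicates.

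Along the arch axis, the dorsal list was more complete than the ventral list. Of 18 dorsal genes 16 (88.9%) were in the baseline, and of 19 ventral genes with a value 11 (57.9%), beside 34.6% of all genes. The difference was not tested, and 8 of the dorsal genes are also ectomesenchyme genes. The shares depend on which genes were listed, so no dorsal or ventral state of the cells is read from them. The Bmp antagonist gene grem2b stood at 153 and 189 TPM, while its copy grem2a was listed at 0 in both. The Hairy-related genes her6 and her9 stood at 86.2 and 104 TPM and at 83.6 and 82.1 TPM. The Notch ligand gene jag1b, a known dorsal signal, was low at 2.37 and 2.60 TPM, and the receptor gene notch3 stood just inside the baseline at 5.44 and 5.36 TPM.

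Ventral genes varied more between the replicates. After ednrab and msx1b (230 and 167 TPM), the homeobox genes dlx3b, dlx5a and dlx4b stood at 75.5 and 127 TPM, 51.8 and 87.5 TPM, and 24.5 and 55.5 TPM. The endothelin target gene mef2ca stood at 63.2 and 55.4 TPM. Later ventral genes were lower: barx1 stood at 13.3 and 41.5 TPM and hand2 at 8.05 and 15.7 TPM. All of dlx3b, dlx4b, dlx5a, barx1 and hand2 were higher in replicate 2, and dlx3b and dlx4b are also otic and ectodermal genes. The homeobox gene gsc stood at 0.155 and 0 TPM.

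Genes of the anterior face were partly present. The Alx genes of the frontonasal crest were in the baseline as alx1 (55.6 and 51.3 TPM) and alx4a (34.9 and 38.1 TPM). The Lim homeobox genes lhx8a and lhx8b stood under 1.9 TPM in both samples. Between the replicates alx1 and alx4a differed little, and both stood well above lhx8a and lhx8b.

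Hox genes were read by paralog group. Crest of the first arch lacks Hox expression, whereas the hyoid and posterior arches use paralog groups 2 to 4 and trunk crest uses higher groups. Of 48 Hox genes with a value, 19 were in the baseline, beside 34.6% of all genes. Together the 48 genes summed to 623 and 459 TPM. Groups 1 to 4 held 57.8% and 61.6% of this sum, groups 5 to 8 held 21.0% and 17.8%, and groups 9 to 13 held 21.2% and 20.6%. The highest gene was hoxa4a at 144 and 113 TPM, followed by hoxb3a at 61.0 and 38.6 TPM and hoxc3a at 55.8 and 42.2 TPM. The hyoid gene hoxa2b stood at 30.6 and 28.0 TPM.

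Hox genes of higher groups were present as well. The highest of these were hoxb9a at 44.4 and 26.0 TPM and hoxb7a at 45.9 and 18.1 TPM. All 5 genes of group 9 were in the baseline. The sort also held markers of neural tissue, muscle and skin, and bulk samples do not show which cells the Hox transcripts came from. In groups 10 to 13, 0 of 18 genes reached 5 TPM in both samples. All of the most abundant 5 genes, hoxa4a, hoxb3a, hoxc3a, hoxb9a and hoxb7a, were higher in replicate 1.

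**Figure D3:**
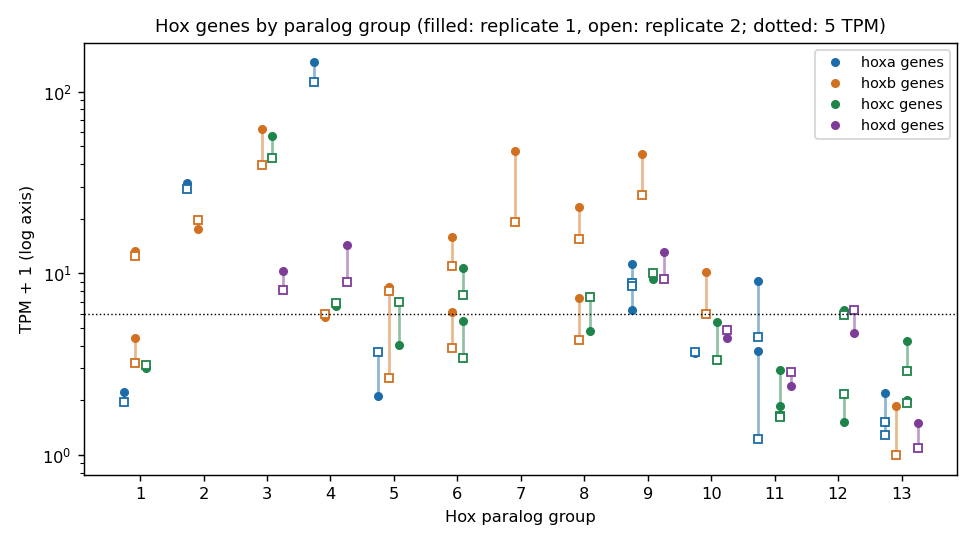
TPM + 1 (log axis) of 48 Hox genes by paralog group and cluster, with filled circles for wild-type replicate 1, open squares for replicate 2 and a dotted line at 5 TPM. The highest point is hoxa4a at 144 and 113 TPM, and no gene of groups 10 to 13 lies above the line in both samples.

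Endothelin 1 (Edn1) acts on crest from surrounding tissue, and its gene edn1 stood at 0.584 and 1.40 TPM, against 481 and 329 TPM for the receptor gene ednrab and 15.9 and 9.76 TPM for ednraa. Of 15 endothelin pathway genes 4 (26.7%) were in the baseline, below the 34.6% of all genes. For Bmp signalling, 18 of 31 genes (58.1%) were in the baseline, beside 34.6% of all genes. Among the highest were the target genes id1 (489 and 637 TPM), id2a and id3 (147 and 140 TPM). Also among the highest were the antagonist gene grem2b and the transducer gene smad5 (108 and 115 TPM). The ligand gene bmp5 stood at 36.1 and 27.7 TPM and bmp4 at 5.44 and 3.98 TPM.

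For Fgf signalling, 14 of 21 genes (66.7%) were in the baseline, beside 34.6% of all genes. Its targets and feedback inhibitors etv5b (136 and 99.2 TPM), spry2 (92.1 and 97.3 TPM), dusp6 (87.8 and 72.3 TPM) and spry4 (75.6 and 47.9 TPM) were the 4 highest, the receptor gene fgfr4 stood at 20.1 and 12.7 TPM, and the ligand gene fgf20b at 14.8 and 21.3 TPM. These 4 genes lay above every receptor and ligand gene of the list in both samples.

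For Wnt signalling, 24 of 45 genes (53.3%) were in the baseline, beside 34.6% of all genes. The beta-catenin genes ctnnb1 (926 and 635 TPM) and ctnnb2 (166 and 118 TPM), which also serve in cell contacts, were followed by the factor gene tcf7l1a (81.4 and 80.8 TPM) and the receptor gene fzd7a (59.1 and 52.5 TPM). The feedback target axin2 stood at 29.1 and 21.0 TPM and the ligand gene wnt11 at 28.8 and 18.3 TPM. Of the 45 genes, 34 were higher in replicate 1, beside 60.1% of all genes.

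For retinoic acid, 14 of 27 genes (51.9%) were in the baseline, beside 34.6% of all genes. The receptor gene rarga led at 112 and 126 TPM, above rarab (34.8 and 22.1 TPM), raraa (10.6 and 7.39 TPM) and rargb (8.12 and 8.51 TPM). The binding protein gene crabp2a stood at 66.4 and 67.0 TPM, and the synthesis gene aldh1a2 at 13.8 and 5.40 TPM. For Notch, 14 of 25 genes (56%) were in the baseline, beside 34.6% of all genes. The gene mib1, which encodes a ligand-activating ubiquitin ligase, stood at 109 and 65.8 TPM, and notch1a at 12.2 and 11.8 TPM. For Hedgehog, 9 of 17 genes (52.9%) were in the baseline, beside 34.6% of all genes. The negative regulator gene sufu stood at 56.2 and 58.5 TPM, and the ligand gene shha at 3.54 and 0.140 TPM. Of the 9 Notch ligand genes dla alone (9.66 and 11.2 TPM) was in the baseline, and of the 3 Hedgehog ligand genes none was.

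Pigment genes were uneven, with enzymes of pteridine and purine synthesis high and many others low. The gene gch2, which encodes the entry enzyme of pteridine synthesis in yellow xanthophores, stood at 2256 and 2786 TPM, rank 39 of 9084. Its pathway partner pts stood at 383 and 418 TPM, and the xanthophore oxidase gene aox5 at 119 and 108 TPM. The purine synthesis genes paics (458 and 476 TPM), atic (302 and 268 TPM) and gart (197 and 180 TPM) serve pigment cells and dividing cells alike. Outside these enzymes, the factor gene mycla stood at 94.0 and 81.7 TPM, and tfec, given below, was also in the baseline. Some genes of the list were low. Among them, xdh stood at 2.07 and 2.13 TPM, and the receptor genes csf1ra at 2.14 and 1.89 TPM and ltk under 0.4 TPM. The ligand genes alkal2a and alkal2b were listed at 0.

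Melanophore genes were lower. The master regulator mitfa stood at 96.3 and 93.2 TPM, the channel gene trpm1b at 76.2 and 60.6 TPM and the AP-2 factor gene tfap2e at 47.3 and 37.6 TPM. Genes of melanin synthesis and melanosomes were lower, with pmela at 14.9 and 11.7 TPM, slc45a2 at 9.40 and 11.7 TPM and tyr (tyrosinase) at 11.3 and 6.11 TPM. The melanin enzyme gene dct stood at 4.51 and 1.53 TPM, tyrp1a and tyrp1b under 2.2 TPM, the receptor gene kita at 0.598 and 0 TPM, and oca2 was listed at 0 in both. In all, 6 of 15 melanophore genes (40%) and 9 of 18 xanthophore and iridophore genes (50%) were in the baseline, beside 34.6% of all genes. The gene tfec, an Mitf relative of pigment progenitors, stood at 110 and 57.7 TPM.

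Neuronal genes were few. Of 34 peripheral neuron genes, 7 (20.6%) were in the baseline, below the 34.6% of all genes. The pan-neuronal RNA-binding gene elavl3 led at 72.6 and 43.6 TPM, and the sensory progenitor genes prdm12b, neurog1 and neurod4 stood at 41.7 and 51.2 TPM, 8.12 and 9.52 TPM, and 5.20 and 13.5 TPM. Among genes of autonomic neurons, phox2bb stood at 1.93 and 4.11 TPM, th at 0 and 0.330 TPM, and phox2ba was listed at 0 in both. The factor gene gata2a, which is on both the peripheral neuron and the otic list, was in the baseline at a mean of 22.0 TPM.

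Glial genes were led by 1 gene. The myelin protein gene pmp22a stood at 1380 and 1209 TPM, rank 118, while pmp22b stood at 8.36 and 15.2 TPM. The lipid-binding gene fabp7a of radial glia stood at 70.0 and 80.1 TPM, and s100b at 17.2 and 23.9 TPM. The myelin genes mbpb and plp1a stood at 9.47 and 15.3 TPM and at 12.8 and 6.36 TPM, mpz at 3.95 and 0.924 TPM, and the neuregulin receptor gene erbb3b at 1.98 and 0.716 TPM. Thus 9 of 18 glial genes (50%) were in the baseline, beside 34.6% of all genes. However, pmp22a made up most of the list's summed 1561 and 1385 TPM.

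Skeletal genes were low. Of 26 genes, 9 (34.6%) were in the baseline, the same share as of all genes, and 8 were listed at 0 in both: matn1, acana, acanb, runx2b, col10a1a, spp1, ihha and snorc. The fibrillar collagen genes col1a1a and col1a2 led at 71.1 and 61.5 TPM and at 37.0 and 27.2 TPM. The cartilage collagen genes col2a1b and col2a1a stood at 23.4 and 12.6 TPM and at 8.46 and 3.08 TPM, and the bone regulator genes sp7 and runx2a under 0.4 TPM.

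Matrix and migration genes were moderate. Of 42 matrix genes with a value, 21 (50%) were in the baseline, beside 34.6% of all genes. The secreted protein genes sparc (73.0 and 72.1 TPM) and tgfbi (81.9 and 54.9 TPM) led. With them stood col1a1a and the basement membrane gene nid2a (84.9 and 45.3 TPM). Of 52 migration and guidance genes, 32 (61.5%) were in the baseline, beside 34.6% of all genes. They were led by the syndecan gene sdc4 at 223 and 184 TPM. Among cadherins, the neural cadherin gene cdh2 stood at 68.2 and 40.1 TPM, the mesenchymal cdh11 at 34.5 and 28.8 TPM and the crest cadherin cdh6 at 36.2 and 25.3 TPM, all above the epithelial cdh1 at 11.1 and 20.8 TPM. In both lists most genes were higher in replicate 1, 34 of 42 and 42 of 52, beside 60.1% of all genes.

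Genes of cell division were abundant. All 27 DNA replication genes with a value were in the baseline, against 34.6% of all genes, and they summed to 11034 and 11187 TPM. The clamp gene pcna stood at 1887 and 2172 TPM (rank 56), the ribonucleotide reductase gene rrm2 at 1789 and 1880 TPM, and the helicase subunit gene mcm7 at 1396 and 1384 TPM. Of 25 mitosis genes, 24 (96%) were in the baseline, beside 34.6% of all genes. Among them were the kinase gene plk1 at 397 and 350 TPM, ube2c at 351 and 366 TPM and cdk1 at 360 and 328 TPM. The gene birc5b was listed at 0. The mitosis list summed to 3520 and 3313 TPM, so both sums were close in the replicates.

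Immediate early and stress genes were present beside them. Of 29 genes 22 (75.9%) were in the baseline, beside 34.6% of all genes. The highest after hspa8 were fosab, junbb and ier2a (268 and 243 TPM). Genes of this kind respond to cell dissociation and sorting, and their part in the levels was not tested. Of 17 damage response and apoptosis genes, 12 (70.6%) were in the baseline, beside 34.6% of all genes. They were led by the cyclin gene ccng1 at 1028 and 1392 TPM. The ubiquitin ligase gene mdm2 and the cell cycle inhibitor gene cdkn1a stood at 38.7 and 37.7 TPM and at 26.6 and 28.4 TPM.

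Markers of other tissues were measurable in the sort. Muscle genes summed to 1415 and 4250 TPM, with 18 of 38 (47.4%) in the baseline, beside 34.6% of all genes. The muscle actin gene actc1b stood at 411 and 1445 TPM, its copy actc1a at 232 and 419 TPM, and the tropomyosin gene tpma at 115 and 380 TPM. The determination genes myog and myod1 differed little, at 30.7 and 32.3 TPM and at 11.7 and 13.7 TPM, while 11 of the 18 genes, among them actc1b and tpma, differed 2-fold or more.

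Epidermis and periderm markers summed to 1500 and 6554 TPM, with 16 of 41 (39.0%) in the baseline, beside 34.6% of all genes. In replicate 2 taken alone, 33 of these markers reached 5 TPM. The periderm keratin gene krt4 stood at 123 and 2040 TPM, cyt1 at 48.6 and 840 TPM and cyt1l at 29.0 and 771 TPM. Several further skin genes were high in replicate 2 alone and so stayed outside the baseline, such as krt92 (2.77 and 174 TPM), icn2 (1.77 and 157 TPM), agr1 (0 and 126 TPM), anxa1c (1.60 and 123 TPM) and krt5 (1.65 and 98.9 TPM). The simple keratin genes krt8 and krt18a.1, which many embryonic cells use, stood at 329 and 364 TPM and at 479 and 589 TPM. The basal epidermal factor gene tp63 stood at 8.25 and 25.02 TPM. Hatching gland enzyme genes showed the same pattern, with he1.1 at 0 and 132 TPM and he1.2 at 0.312 and 110 TPM.

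Erythroid markers, unlike skin and muscle, were lower in replicate 2. They summed to 1757 and 1309 TPM, with 14 of 22 (63.6%) in the baseline, beside 34.6% of all genes. Of the 22 genes, 20 were higher in replicate 1, beside 60.1% of all genes. The globin genes hbae1.3 (479 and 366 TPM) and hbbe1.1 (331 and 197 TPM) led, and globin copies are near-identical, so that their single levels are uncertain. Endothelial markers were low, summing to 133 and 75.9 TPM. Of 27 genes 4 (14.8%) were in the baseline, below the 34.6% of all genes. These were etv2 (29.2 and 9.89 TPM), fli1b, sox7 and stab2. The vessel receptor gene kdrl stood at 3.94 and 2.02 TPM. In replicate 1 taken alone, 9 endothelial genes reached 5 TPM.

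Myeloid markers summed to 369 and 582 TPM, with 15 of 29 (51.7%) in the baseline, beside 34.6% of all genes. The enhancer-binding gene cebpb, which is not confined to myeloid cells, stood at 94.4 and 164 TPM, the myeloid regulator spi1b at 41.1 and 43.9 TPM, and the actin-binding genes coro1a and lcp1 at 47.2 and 99.9 TPM and at 31.2 and 45.2 TPM. The receptor gene marco was listed at 0 in both. Of the 29 genes, 22 were higher in replicate 2 and 6 in replicate 1, whereas 60.1% of genes above 0 were higher in replicate 1.

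Central nervous system markers summed to 554 and 431 TPM, with 20 of 41 (48.8%) in the baseline, beside 34.6% of all genes. Among them were the neural progenitor genes sox3 (125 and 79.8 TPM), sox19a (68.8 and 44.8 TPM) and sox2 (34.8 and 18.4 TPM). Otic markers summed to 357 and 571 TPM, with 8 of 25 (32%) in the baseline, near the 34.6% of all genes. Of the 25 genes, 17 were higher in replicate 1, and the higher sum of replicate 2 lay in dlx3b, dlx4b, epcam (19.3 and 147 TPM) and cldnb (9.43 and 64.7 TPM), of which epcam and cldnb are skin list genes too. The otic matrix gene oc90 stood at 18.5 and 8.87 TPM, and the otic factor genes pax2a and pax8 at 3.98 and 2.22 TPM and at 1.57 and 1.22 TPM.

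Several tissues were scarcely represented. Of the genes for notochord and floor plate (14), pronephros (13) and germ line (8), 0 were in the baseline, and these lists summed to at most 34.2 TPM in either sample. Endoderm (3 of 19 genes), heart (3 of 11), and somite and tailbud (3 of 22) lay below the 34.6% of all genes. For yolk syncytium and liver 2 of 19 genes (10.5%) were in the baseline, also below the 34.6% of all genes. These were apoeb (107 and 155 TPM) and apoc1, while ttr, fabp1a, vtg1, vtg2 and apobb.2 were listed at 0 in both. The early endoderm gene sox32 was also listed at 0. In replicate 1 taken alone, 2 notochord and floor plate genes and 5 yolk and liver genes reached 5 TPM.

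**Figure D4:**
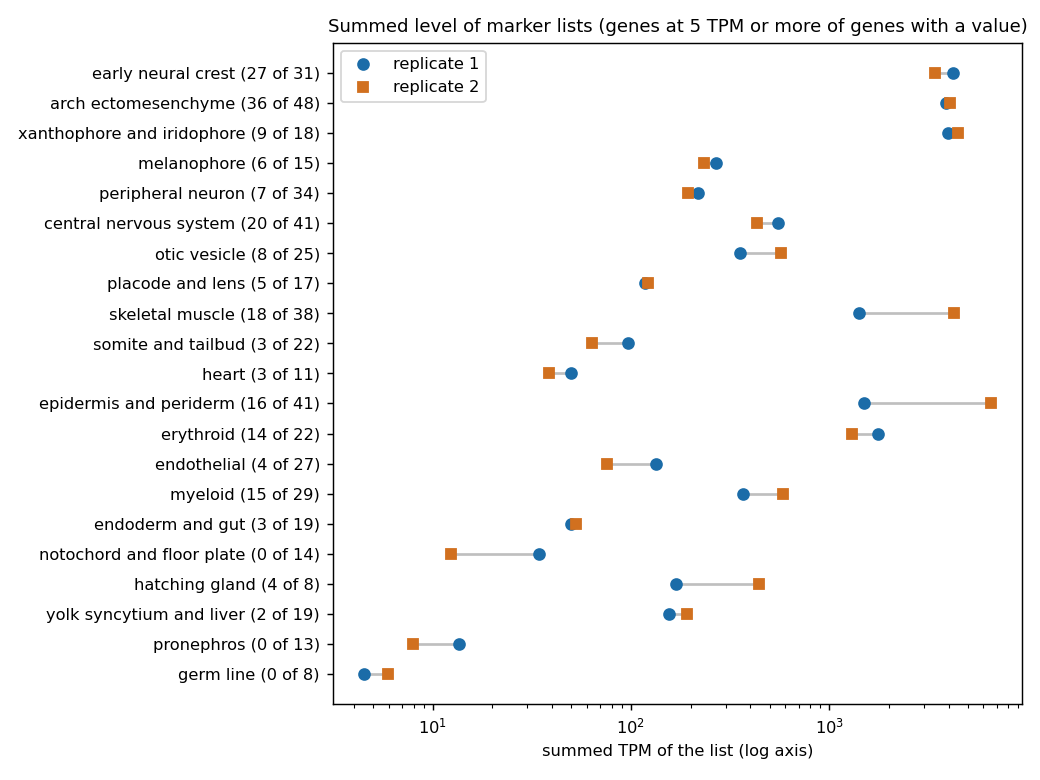
Summed TPM (log axis) of marker lists in wild-type replicate 1 (circles) and replicate 2 (squares); brackets give the genes in the baseline of those with a value. Crest, ectomesenchyme and xanthophore and iridophore sums lie near each other in both samples. The single gene gch2 (2256 and 2786 TPM) makes up most of the xanthophore and iridophore sum of 3982 and 4464 TPM. Skeletal muscle runs from 1415 to 4250 TPM and epidermis and periderm from 1500 to 6554 TPM.

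Between the replicates, 198 of 9084 genes (2.18%) differed at least 2-fold on the log2(TPM + 1) scale. Of these, 85 (0.936%) were higher in replicate 2 and 113 (1.24%) in replicate 1. This compares 2 single libraries, and the median log2 difference over all genes was -0.11 (replicate 2 minus replicate 1). Of the 16 skin genes in the baseline 9 were at least 2-fold higher in replicate 2, and of the 18 muscle genes 11, with median log2 differences of 1.28 and 1.46.

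Early crest and ectomesenchyme genes differed less. The median log2 difference was -0.28 over the 27 early crest genes and 0.03 over the 36 ectomesenchyme genes, to be read beside the -0.11 over all 9084 genes. Of the former, inka1b (14.5 and 31.5 TPM) passed 2-fold upward in replicate 2 and pax7b (190 and 69.1 TPM) in replicate 1; of the latter, none did. Ventral arch genes moved more, with a median log2 difference of 0.27 over the 11 in the baseline. Of these 11, barx1 (13.3 and 41.5 TPM) and dlx4b (24.5 and 55.5 TPM) passed 2-fold toward replicate 2 and 0 toward replicate 1. Over all genes 0.936% passed toward replicate 2. The summed level of the early crest list was 0.807 times as high in replicate 2, and that of the ectomesenchyme list 1.04 times. Whether the larger skin and muscle signal in replicate 2 plays a part in these values was not tested.

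**Figure D5:**
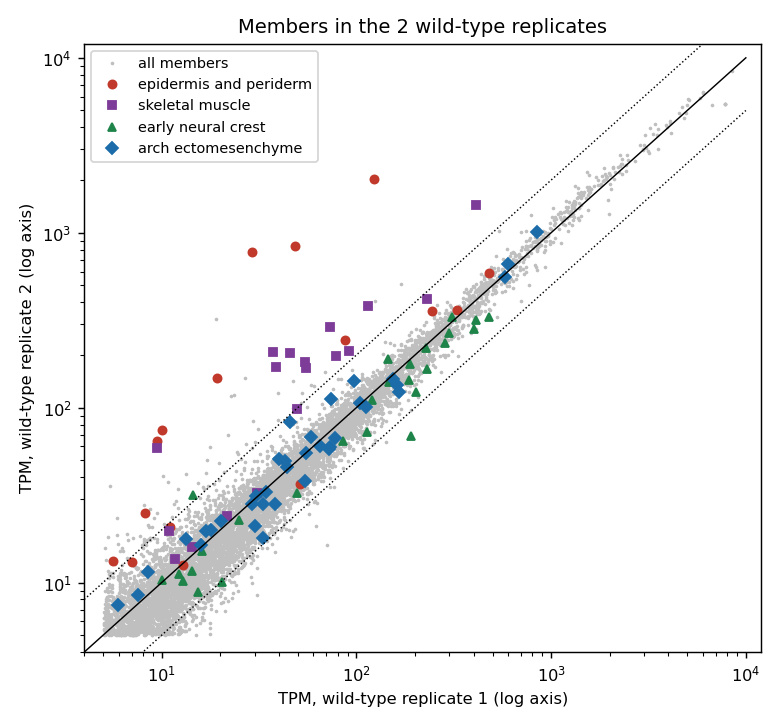
TPM of the 9084 genes in wild-type replicate 1 and replicate 2 (both log axes), with 4 lists in colour, a solid line of equality and dotted lines at 2-fold. Most baseline skin and muscle genes lie above the upper dotted line, led by krt4 at 123 and 2040 TPM. Most crest and ectomesenchyme genes lie between the dotted lines. On these plain TPM axes the crest genes pax7b (190 and 69.1 TPM), inka1b (14.5 and 31.5 TPM) and, narrowly, sox9b (20.3 and 10.04 TPM) lie outside them.

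Among baseline genes with a symbol and a mean level of at least 20 TPM, the 10 genes with the largest ratio toward replicate 2 were cyt1l, cyt1, krt4, epcam, cldni, cldnb, cd9b, myhz1.3, mylpfa and tmsb1. They ran from 26.6-fold for cyt1l to 5.52-fold for tmsb1, and 6 of them, cyt1l, cyt1, krt4, epcam, cldni and cldnb, are skin list genes. Skin genes outside the baseline had larger ratios, such as icn2 at 88.7-fold and krt17 (1.28 and 106 TPM) at 82.9-fold. The other direction was shallower. It held mapre2 (71.0 and 16.3 TPM, 4.35-fold), pax7b (2.75-fold), pptc7b, hoxb7a, nid1b, EPB41L2, trim23, tpra, mri1 and fam118b (2.18-fold). The genes mapre2 and nid1b encode a microtubule end-binding protein and a basement membrane protein, and pax7b and hoxb7a are crest and trunk factors.

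The threshold cut through genes of like level. Just inside it lay nemp2 at 6.41 and 5.001 TPM and rapgef2 at 9.76 and 5.001 TPM. Just outside lay slc41a2b at 5.74 and 4.999 TPM and unc45a at 6.13 and 4.999 TPM. Among list genes, bmpr1bb (12.3 and 5.06 TPM) and fsta (6.87 and 5.09 TPM) were just inside, and dld (4.90 and 7.43 TPM) and rdh10b (4.89 and 8.95 TPM) just outside. Another 838 genes reached 5 TPM in replicate 1 alone and 512 in replicate 2 alone, and 4473 genes were listed at 0 in both.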

How the data were processed

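RNA of FACS-sorted sox10:DsRed+ cells was reverse-transcribed with SMARTer reagents and the cDNA amplified, per the labels' protocols. The authors deposited TPM values for 65905 Ensembl transcripts, of which 57775 had a value; kallisto was the tool and GRCz11 the build, per the submitters' processing notes; versions and annotation release are not given in the sources used here. Each column summed to 1000000, so depth is unknown and no counting interval was possible. Transcript TPM was summed by gene name, or by gene ID where blank; 3701 names joined 2 or more IDs. Pseudogene and copy assignment is the authors'. Genes at 5 TPM or more in both wild-type columns were kept, and the replicates were compared on log2(TPM + 1) with python 3.11.15 and pandas 2.3.3, after a check on simulated data. No test was made. The 39 lists hold 902 genes: 883 matched by name, 2 by gene ID, 16 were not matched and 1 had no value. Members and lists were chosen with earlier results of these data known. Named genes were the 25 most abundant, the 6 highest of each list, the 20 highest transcription factor genes, the 10 largest replicate ratios each way, transcripts of 12 genes and those at the threshold; other genes named were chosen after their values were seen.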

Additional observations from a re-analysis of the deposited data

How the results depend on the processing

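The number of genes in the baseline (9084) and of list genes in it (433) stayed within 1.5-fold under every alternative run, but 34 counts of single lists did not. With replicate 1 left out, skin genes in the baseline numbered 33 in place of 16 and hatching gland genes 7 in place of 4. With replicate 2 left out, endothelial genes numbered 9 in place of 4, yolk and liver genes 5 in place of 2 and notochord genes 2 in place of 0. Peripheral neuron genes numbered 18 at 1 TPM and 3 at 10 TPM, in place of 7; glial genes numbered 3 at 10 TPM in place of 9, and endothelial genes 19 at 1 TPM. At 1 TPM in both samples the baseline held 13437 genes and at 10 TPM 6878, and with 1 replicate left out it held 9596 to 9922. The share of TPM in the top 100 genes was 28.4%, and 27.1% when transcripts were summed by gene ID, which splits joined names by construction. Genes past 2-fold between the replicates numbered 198, but 85 with a pseudocount of 5 TPM and 1322 with no filter on low values, which adds low genes by construction. The summed ectomesenchyme level was 3976 TPM, and 4575 TPM when mitochondrial and ribosomal protein genes were left out of the total, which raises each remaining gene by construction. With 1 replicate left out, the muscle sum ran from 1415 to 4250 TPM and the skin sum from 1500 to 6554 TPM, so both rest on which library is used. For 13 of 231 named genes, among them rrm2, cxcl12b and epcam, the largest gene ID held less than the sum by over 1.5 times. No paired analysis was possible because the baseline has 1 group and no test. Depth is unknown, so levels near 5 TPM cannot be ranked.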

Other observations

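Housekeeping complexes not described above took a steady part of both wild-type libraries. Proteasome subunit genes were in the baseline in 47 of 57 cases and held 1.71% of the TPM in replicate 1 and 1.77% in replicate 2. Nuclear genes of cytochrome c oxidase and ATP synthase, the last steps of respiration, held 1.65% and 1.88%, with 39 of 46 in the baseline. Genes of the chaperonin CCT, which folds actin and tubulin, held 0.651% and 0.635%, with 9 of 10 in the baseline. Keratin genes stood apart from these classes, with 0.136% in replicate 1 and 0.544% in replicate 2.

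Of 17 placode and lens genes 5 (eya1, ebf2, cxcr4b, six1b and eya2) were in the baseline, a share of 29.4% beside 34.6% of all genes, and the list summed to 117 and 122 TPM. The lens crystallin genes cryaa, crybb1 and crygm2d3 were listed at 0 in both samples.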
